A study of Mus musculus with 9 samples.

Results

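Difamilast, an inhibitor of phosphodiesterase 4 (PDE4), was compared with its vehicle in stimulated mouse basophils by bulk RNA-seq. The libraries compared were 6 of the 9 in the series, and all genes that passed a filter on low counts were kept, 21341 of the 35673 gene symbols in the table. Every library came from wild-type C57BL/6J bone marrow cultured for 7 days in 0.3 ng/mL IL-3, from which CD49b+ cells were taken with magnetic beads, and 10000 of those cells were used per sample. The 3 vehicle libraries had received IL-3 and IL-33, each at 10 ng/mL, with DMSO, and the 3 difamilast libraries had received the same cytokines with 3 µM difamilast, also in DMSO, both for 4 hours. A further 3 resting libraries, given PBS and DMSO, entered the fit and are quoted only as levels beside the other values. A single dose and a single time stand behind every value, and no resting library with difamilast was analysed here. The labels number the replicates without saying that they were separate cultures, so the p-values measure only how far these samples differ among themselves, and that spread may be technical.

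Basophils are rare granulocytes that release histamine and lipid mediators and are an early source of IL-4 and IL-13. IL-33 acts on them through its receptor ST2 and MyD88, and IL-3 acts through a receptor that shares its beta chain with those for GM-CSF and IL-5. PDE4 enzymes break down cyclic AMP (cAMP), so an inhibitor raises cAMP, which acts through protein kinase A (PKA) and Epac. PKA phosphorylates the transcription factor CREB and inhibits the salt-inducible kinases, which otherwise hold the CRTC coactivators of CREB in the cytoplasm. Difamilast is used on the skin in atopic dermatitis.

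Total counts were 11798711 to 38098584 in the vehicle libraries and 24812305 to 30299575 in the difamilast libraries, and at least 99.86% of them fell on tested genes. Levels below are CPM, counts scaled to the TMM-adjusted size of each library, and 3 values stand in the order of replicates 1, 2 and 3. A gene is called changed at an adjusted p below 0.05, from the quasi-likelihood test of edgeR after Benjamini-Hochberg adjustment over all 21341 tested genes. All 16 basophil markers looked up were tested, and their summed level was 14623 to 15521 CPM with vehicle and 15124 to 15309 CPM with difamilast. At rest it was 6462 to 8013 CPM, and how far this sum follows the number of basophils was not tested. Of these markers 2, Ms4a2 and Csf1, were called lower and none was called higher. Markers of other cells were present too: 18 of monocytes and macrophages summed to 5904 to 6347 CPM with vehicle and 6431 to 6624 CPM with difamilast, with 1 of them, Cd14, called. Neutrophil markers summed to 781 to 857 and 687 to 769 CPM, dendritic cell markers to 2108 to 2242 and 2249 to 2366 CPM, and NK and T cell markers to 107 to 116 and 99.7 to 124 CPM. Mast cell markers summed to 1851 to 1948 and 1659.9 to 1924 CPM, with 1 of 12 called higher and 3, Tpsab1, Mitf and Slc6a4, called lower (median log2 fold change -0.28). Among 14 dendritic cell markers 1 was called higher (Ccr7) and 2 lower, among them Batf3, among 11 progenitor markers 2 were called higher and 1 lower, and among 17 neutrophil markers 1, Cxcr2, was called lower. Eosinophil markers summed to 54.4 to 64.9 and 47.2 to 63.4 CPM, with none of the 7 tested called. The eosinophil genes Epx and Prg3 did not pass the filter on low counts. The part of other cells in the results was not tested, and in bulk RNA fewer cells of a type and less RNA per cell cannot be told apart.

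Difamilast changed 735 genes, 3.44% of those tested. Of these, 471 (2.21%) were higher and 264 (1.24%) were lower than with vehicle, and 153 and 81 of them changed at least 2-fold. The vehicle and difamilast libraries did not overlap in 734 of the 735, against 24.8% of all tested genes. The fit without difamilast replicate 3 called 5.21% of its genes (2.47% higher, 2.74% lower), the fit with the transcript length trend removed 4.32% (2.56% higher, 1.76% lower) and the fit of the 2 groups alone 7.97% (3.96% higher, 4.01% lower). Both sets had a median change of 1.74-fold in size, against 1.16-fold over all tested genes. The genes that rose had a median level of 42.6 CPM at rest, 43.3 CPM with vehicle and 77 CPM with difamilast, and the genes that fell stood at 22.6, 44.1 and 26.9 CPM. Across 17 alternative fits, each with another tool or setting or with 1 library left out, 314 genes were called in every one, 234 higher and 80 lower. Each count of called list members below is to be read against the shares over all tested genes, 2.21% higher and 1.24% lower. The lists were chosen with earlier results of these data known, so these counts are descriptions and not tests. Where a call is said below to be lost without any of 5 libraries, it ended when vehicle replicate 1, 2 or 3 or difamilast replicate 1 or 2 was left out.

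**Figure D1:**
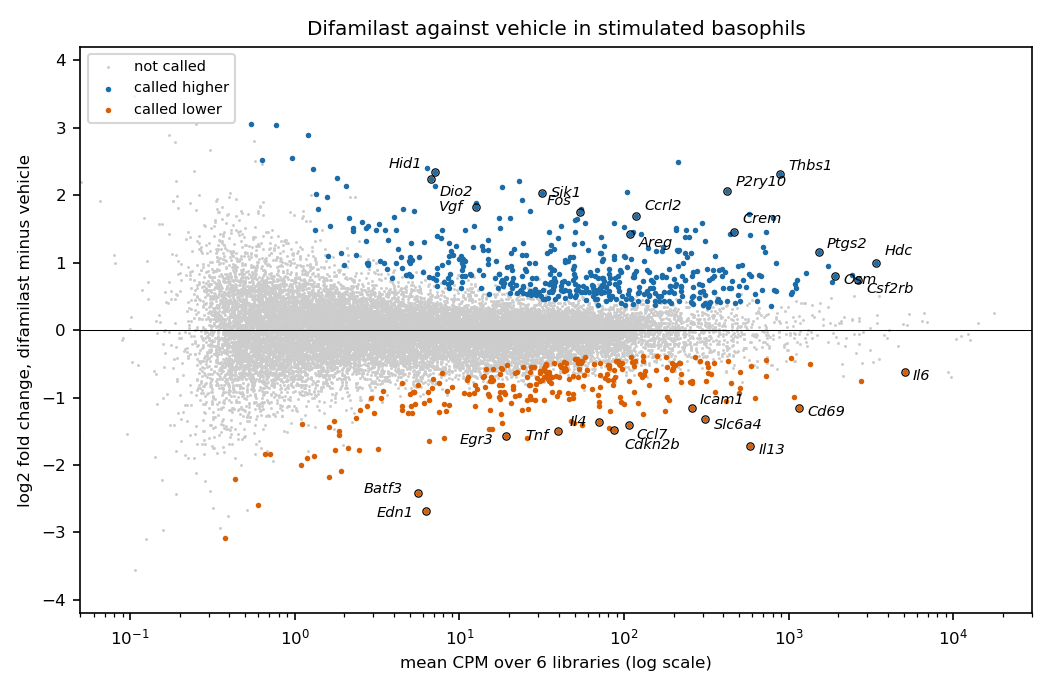
Log2 fold change, difamilast minus vehicle, of every tested gene (vertical axis) against its mean CPM over the 6 libraries (horizontal, log scale), with genes called higher in blue and called lower in orange. The 471 higher calls outnumber the 264 lower calls, and among the labelled genes Hid1, Thbs1 and Dio2 stand highest and Edn1 and Batf3 lowest; 8 points lie outside the axes.

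Large rises among abundant genes included those of thrombospondin and of a lysophospholipid receptor. Thbs1, which encodes the matrix glycoprotein thrombospondin 1, was at 269, 269 and 351 CPM with vehicle and at 1521, 1483 and 1420 CPM with difamilast (log2 fold change 2.32 ± 0.17 SE, adjusted p = 2.24e-06). P2ry10, a receptor for lysophosphatidylserine, stood at 693, 606 and 642 CPM at rest, 158, 157 and 170 CPM with vehicle and 706, 722 and 609 CPM with difamilast (2.07 ± 0.11, adjusted p = 6.54e-08). With difamilast P2ry10 was close to its level in resting cells, while difamilast took Thbs1 above all of them (320 to 544 CPM). B3gnt5, which starts lacto-series glycolipids, rose 4.62-fold (adjusted p = 4.74e-06), and the myeloid activating receptor Trem1 rose from 5.71 to 8.47 CPM up to 25.2 to 35.1 CPM (4.34-fold, adjusted p = 8.63e-05). Tinf2, a telomere-protecting protein whose annotated exons overlap those of Gmpr2, rose 4.14-fold (adjusted p = 2.87e-06). The acetylcholine receptor subunit Chrne rose 3.82-fold (adjusted p = 5.83e-05).

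Among called genes reaching 10 CPM with groups apart, the largest fall was that of Edn1, the precursor of the vasoconstrictor endothelin 1. Predicted genes, pseudogenes and ribosomal protein genes were left out of that ranking. Edn1 was at 9.99, 9.88 and 12.7 CPM with vehicle and 1.88, 0.877 and 2.42 CPM with difamilast (log2 fold change -2.68 ± 0.32, adjusted p = 0.000123). Resting cells had 0.55 to 1.54 CPM of Edn1, so the difamilast libraries lay close to them. Also among the largest falls were Flt1, the VEGF receptor 1 (2.74-fold lower, adjusted p = 0.00012), Tifab, an inhibitor of the adaptor TIFA (2.77-fold, adjusted p = 0.000148), the Src-family kinase Fgr (2.60-fold, adjusted p = 4.97e-05) and the muscle LIM protein gene Csrp3 (2.63-fold, adjusted p = 0.000449). Csrp3 was at 4.34 to 6.11 CPM at rest, 72.6 to 91.5 CPM with vehicle and 22.2 to 41.5 CPM with difamilast.

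Of 40 genes known to respond to cAMP and CREB, all tested, 18 rose, 1 fell and 21 were not called, with a median log2 fold change of 0.53, against -0.00 over all tested genes. Sik1, whose kinase is both a target and a brake of the pathway, was at 10.8, 13.6 and 12.9 CPM with vehicle and 49.1, 53.8 and 51.6 CPM with difamilast (2.03 ± 0.13, adjusted p = 8.65e-07). Crem, which encodes activators and the repressor ICER, rose from 242, 235 and 264 CPM to 712, 690.2 and 643 CPM (1.46 ± 0.11, adjusted p = 1.61e-06). Sik3, another kinase of that family, rose 1.42-fold (adjusted p = 0.0182), a call lost without any of the 5 libraries (adjusted p 0.0538 to 0.123). For Sik1 and Crem the 2 groups were far apart, and the resting levels (26.8 to 31.5 CPM for Sik1, 418 to 514 CPM for Crem) lay between them.

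Immediate early genes of the list moved unequally. Fos, an AP-1 subunit, was at 21.5, 21.3 and 30.8 CPM with vehicle and 89.2, 80.3 and 81.4 CPM with difamilast (log2 fold change 1.76 ± 0.14, adjusted p = 3.15e-06), below the 106 to 108 CPM of resting cells. Its relative Fosl2 rose 2.87-fold (adjusted p = 5.11e-06). The nuclear receptors Nr4a3 and Nr4a2 rose 2.11-fold (adjusted p = 7.82e-06) and 2.15-fold (adjusted p = 0.00113), whereas Nr4a1 had 40.6 to 47.8 CPM with vehicle and 46.7 to 51.1 CPM with difamilast and was not called (0.14 ± 0.16, adjusted p = 0.779). The period gene Per1 was not called either (0.41 ± 0.17, adjusted p = 0.258). Rgs1 and Rgs2, which shorten G protein signals, rose 2.67-fold (adjusted p = 4.51e-06) and 2.21-fold (adjusted p = 0.00049), and no other of 18 tested RGS genes was called. Nfil3, a repressor with roles in IL-4 loci and the clock, rose 1.74-fold (adjusted p = 0.00121), and Irs2, an insulin receptor substrate, rose 1.48-fold (adjusted p = 0.0112) but lost its call without difamilast replicate 2 or any vehicle replicate (adjusted p 0.0545 to 0.084). Gadd45b, a stress gene also driven by NF-kB, was the 1 member that fell (1.54-fold, adjusted p = 0.0284), and that call was lost without any of the 5 libraries (adjusted p 0.0803 to 0.181).

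Promoter windows reaching from 250 bases before to 50 bases after the transcription start were searched for the full cAMP response element, TGACGTCA, which reads the same on both strands. The windows come from RefSeq on build GRCm38.p6, and 12922 tested genes had at least 1. Among the genes of the cAMP and CREB list that rose, 14 had a window and 3 of them held the full element before the start: Areg, Dio2 and Dusp1. Of the list's genes that were not called higher, 14 had a window and 1 held it. The 3 stretches are shown because they are where responsive genes of the list carry the element, with 30 bases on each side, on the gene's own strand and with the element in capitals. The Areg stretch is chr5:91139508-91139575 on the plus strand, and the element begins 61 bases before the start. The Dio2 stretch is chr12:90739096-90739163 on the minus strand, with the element 95 bases before the start, and the Dusp1 stretch is chr17:26508578-26508645 on the minus strand, with the element 143 bases before it.
Areg: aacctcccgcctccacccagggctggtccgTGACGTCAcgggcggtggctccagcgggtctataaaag
Dio2: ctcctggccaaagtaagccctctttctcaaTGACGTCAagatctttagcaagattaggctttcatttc
Dusp1: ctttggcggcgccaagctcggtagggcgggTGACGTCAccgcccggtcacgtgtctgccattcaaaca

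All 3 of these genes rose by more than 2-fold. Areg, the growth factor amphiregulin, was at 53.8, 66.9 and 57.7 CPM with vehicle and 165, 147 and 165 CPM with difamilast (log2 fold change 1.42 ± 0.12, adjusted p = 3.6e-06). Dio2, the deiodinase that activates thyroid hormone, went from 2.66, 2.49 and 1.98 CPM to 12.6, 11.0 and 9.63 CPM (2.24 ± 0.23, adjusted p = 2.58e-05). Dusp1, a phosphatase that switches off p38 and JNK, went from 68.7, 66.1 and 72.1 CPM to 202, 201 and 155 CPM (1.43 ± 0.12, adjusted p = 5.77e-06). The element is not particular to genes that rose. It was found in 3.10% of all tested genes with a window, in 3.88% of the genes that rose and in 3.06% of those that fell, and the falling genes Cdkn2b, Flt1, Mitf and Nfkbid hold it. Of the genes with a window, 8 of 100 that rose at least 2-fold had it and 2 of 54 that fell at least 2-fold. The shorter core TGACG, on either strand and counted also where it is part of the full element, was in 31.3% of all, 40.3% of the rising and 26.5% of the falling genes. In the cAMP and CREB list it was in 78.6% of the members that rose and 85.7% of the others. No test was made of these shares, and a match of letters is not a bound site.

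Phosphodiesterase genes, the family of the drug target, gave 3 rises and 1 fall among 19 tested. Pde4b, a PDE4 subtype that is itself a CREB target, was at 213, 216 and 221 CPM with vehicle and 314, 302 and 305 CPM with difamilast (log2 fold change 0.51 ± 0.09, adjusted p = 0.00362). Pde4d rose from 12.3, 15.3 and 14.9 CPM to 25.7, 27.2 and 20.1 CPM (0.77 ± 0.15, adjusted p = 0.00681), a call lost without difamilast replicate 2 (adjusted p = 0.0586) or vehicle replicate 1 (adjusted p = 0.0534). The other subtypes were not called: Pde4a was at 8.18 to 9.32 and 6.78 to 7.57 CPM (adjusted p = 0.511), and Pde4c had an adjusted p of 0.869. Pde5a, which breaks down cyclic GMP, rose 1.48-fold (adjusted p = 0.0317), a call lost without any of the 5 libraries (adjusted p 0.0751 to 0.217). Pde8b fell from 0.714 to 1.52 CPM to 0.0361 to 0.292 CPM, a level of few reads, and lost its call without difamilast replicate 1 or vehicle replicate 1 or 2 (adjusted p 0.0644 to 0.1).

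Receptors that raise or lower cAMP changed in both directions, 5 higher and 3 lower of 24 tested, with a median log2 fold change of 0.04. Those that rose included Adora2a and Gpr65, which couple to the stimulatory G protein. Adora2a, an adenosine receptor, went from 44.8, 48.7 and 51.3 CPM to 92.9, 92.9 and 82.9 CPM (0.89 ± 0.12, adjusted p = 0.00043). The proton-sensing receptor Gpr65 rose 1.89-fold (adjusted p = 0.000929). S1pr1, the sphingosine 1-phosphate receptor that guides exit from tissues, is not one of these stimulatory receptors. S1pr1 was at 97.3 to 122 CPM at rest, 7.98 to 8.85 CPM with vehicle and 16.2 to 22.1 CPM with difamilast (2.28-fold, adjusted p = 0.000122). Its level was thus raised but stayed well under that of resting cells.

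The stimulatory receptors Hrh2 and Adora2b fell. The histamine H2 receptor gene Hrh2 dropped from 11.6, 13.2 and 10.8 CPM to 5.12, 4.97 and 6.45 CPM (log2 fold change -1.11 ± 0.18, adjusted p = 0.00148). Adora2b, the low-affinity adenosine receptor, was at 470.1 to 517 CPM with vehicle and 316 to 403 CPM with difamilast (1.37-fold lower, adjusted p = 0.0257), but lost its call without difamilast replicate 2 or 3 or any vehicle replicate (adjusted p 0.0563 to 0.147). Of the other called members of the list, Adora3 (1.54-fold higher, adjusted p = 0.0199) shares annotated exons with Tmigd3. Its call and that of P2ry14 (1.43-fold lower, adjusted p = 0.0136) were lost without any of the 5 libraries (adjusted p up to 0.119 and 0.105). Of 30 adenylyl cyclase, PKA, Epac and anchoring protein genes, 3 rose and none fell. Akap13, which anchors PKA, rose from 837, 842 and 828 CPM to 1346, 1342 and 1522 CPM (0.75 ± 0.09, adjusted p = 0.000213). Gnas, the stimulatory G protein subunit, rose 1.44-fold (adjusted p = 0.0211, lost without any of the 5 libraries, up to 0.165), and Pkib, an inhibitor of PKA, rose 1.42-fold (adjusted p = 0.00952, lost without difamilast replicate 2 or vehicle replicate 1 or 2, up to 0.0789). The PKA subunit genes Prkaca (adjusted p = 0.985) and Prkacb (adjusted p = 0.626) and Creb1 (adjusted p = 0.178) were not called.

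**Figure D2:**
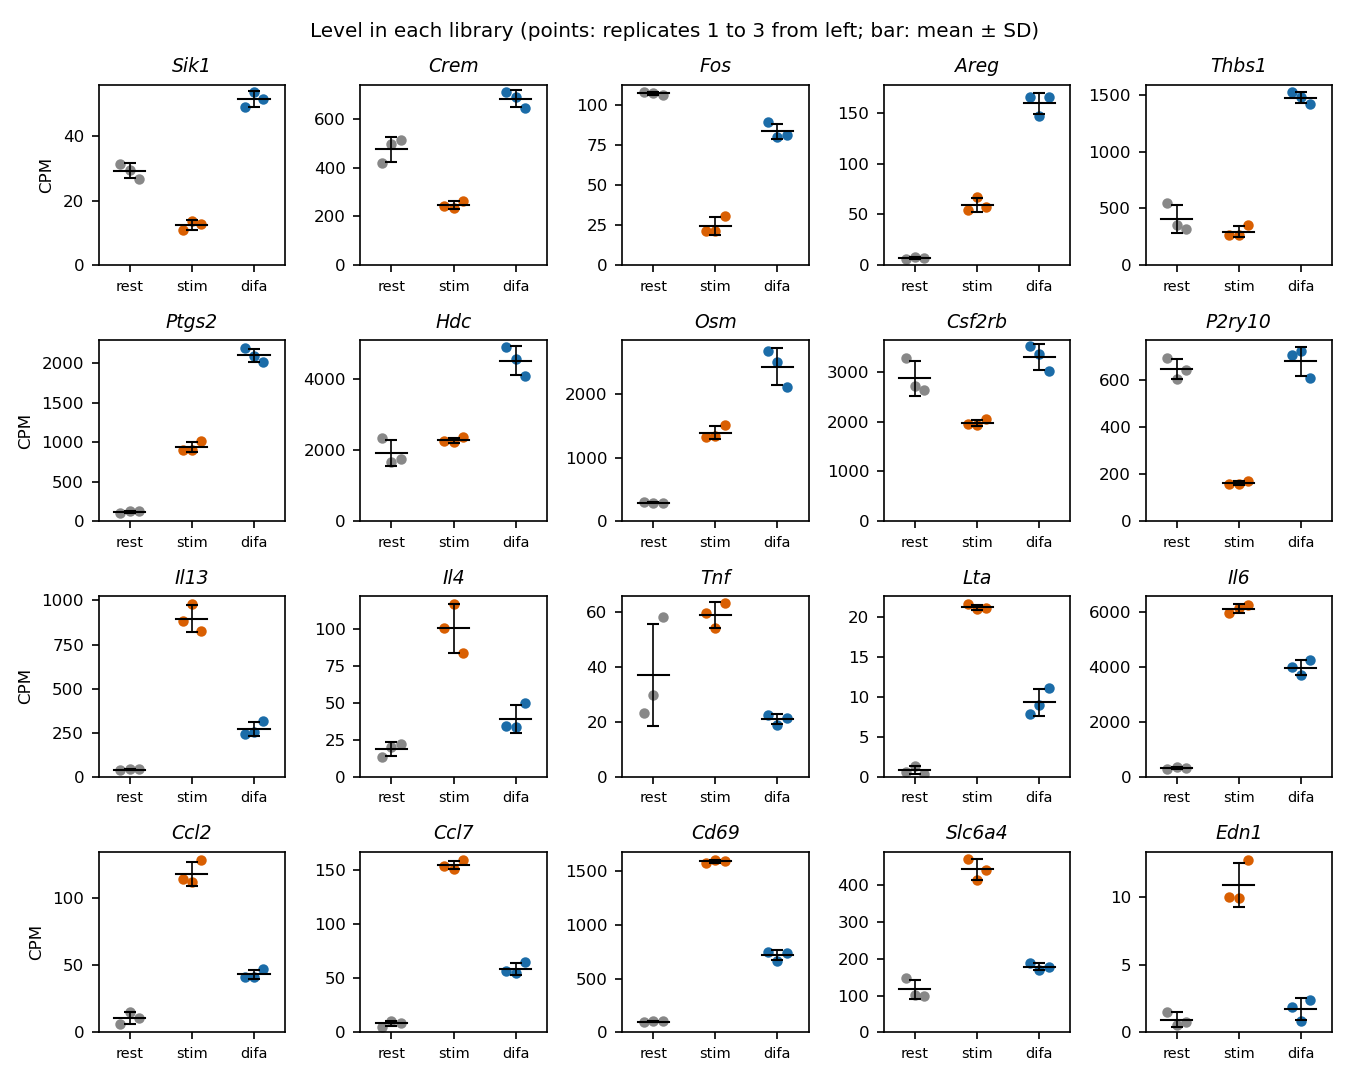
CPM of 20 genes in each of the 9 libraries (vertical axis, from 0), with resting libraries in grey, vehicle (stim) in orange and difamilast (difa) in blue; points are replicates 1 to 3 from left, and bars give the mean and SD of 3. In all 20 genes the 3 difamilast points lie on one side of the 3 vehicle points; Sik1 and Thbs1 rise above both other groups, while Il13, Il4, Ccl2 and Ccl7 fall towards the resting level without reaching it.

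Among called cytokine genes falls outnumbered rises, 8 lower and 2 higher of 34 tested, with a median log2 fold change of -0.15 and 15 members positive. DESeq2 called 9 lower and 2 higher, limma-voom 9 and 3, and the edgeR fit of the 2 groups alone 9 and 5. At an unadjusted p below 0.05 in edgeR's test the directions were nearly even, 10 lower and 9 higher. The shares over all tested genes were 1.24% lower and 2.21% higher. The type 2 cytokine locus on chromosome 11 split. Il13 (chr11:53631324-53634702, GRCm38) was at 886, 978 and 828 CPM with vehicle and 242, 256 and 318 CPM with difamilast (-1.72 ± 0.12, adjusted p = 1.48e-06), and Il4 (chr11:53602982-53618669) was at 101, 117 and 83.9 CPM and 34.1, 33.5 and 50.2 CPM (-1.36 ± 0.19, adjusted p = 0.00047). Il5 (chr11:53720794-53725106), the eosinophil growth factor that lies beyond Rad50 in the same locus, rose from 3.90, 3.98 and 4.18 CPM to 13.1, 11.5 and 7.02 CPM (1.39 ± 0.26, adjusted p = 0.00536). Rad50 itself was not called, at 11.7 to 14.3 and 8.30 to 13.2 CPM (-0.30 ± 0.18, adjusted p = 0.493). Each of the 3 cytokine genes kept its call in every alternative fit; Il5 came closest to losing it (adjusted p up to 0.0445), and its annotated exons overlap those of Gm12214.

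The TNF genes, which lie side by side on chromosome 17, fell together. Tnf (chr17:35199381-35202007) was at 59.4, 54.0 and 63.2 CPM with vehicle and 22.3, 18.8 and 21.5 CPM with difamilast (log2 fold change -1.50 ± 0.24, adjusted p = 0.0015), under its resting level of 23.1 to 58.1 CPM. Lta (chr17:35203165-35205351), which encodes lymphotoxin alpha, was at 21.6, 21.0 and 21.2 CPM and 7.83, 9.03 and 11.1 CPM (-1.19 ± 0.20, adjusted p = 0.00285). Ltb (chr17:35194439-35196320), its membrane partner, was at 5.06 to 7.63 CPM and 2.67 to 3.79 CPM (1.93-fold lower, adjusted p = 0.0201), a call lost without difamilast replicate 1 or 2 or vehicle replicate 1 or 2 (adjusted p 0.0637 to 0.156). Il6, the most abundant cytokine gene called, fell from 5953, 6147 and 6271 CPM to 3979, 3713 and 4238 CPM (-0.62 ± 0.10, adjusted p = 0.00174), still far above the 291 to 343 CPM of resting cells.

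Csf1, the macrophage growth factor, was at 347 to 488 CPM at rest, 581, 547 and 567 CPM with vehicle and 262, 239 and 316 CPM with difamilast, so it fell under its resting level (log2 fold change -1.05 ± 0.13, adjusted p = 0.000233). Ebi3, a subunit of IL-27 and IL-35, fell 1.78-fold (adjusted p = 0.0262), a call lost without any of the 5 libraries (adjusted p 0.0572 to 0.177). Against these, Osm, an IL-6 family cytokine also driven by STAT5, rose from 1320, 1346 and 1512 CPM to 2689, 2506 and 2111 CPM (0.81 ± 0.11, adjusted p = 0.000365). Il1a was not called (0.15 log2, adjusted p = 0.561).

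Chemokine genes gave no rise and 3 falls among 24 tested, with a median log2 fold change of -0.41. Over all tested genes 2.21% were called higher and 1.24% lower. DESeq2 called 7 lower and none higher, and limma-voom 8 lower and none higher. At an unadjusted p below 0.05 in edgeR's test 11 were lower and 2 higher. Ccl2, a monocyte attractant, went from 114, 112 and 129 CPM to 41.6, 41.4 and 47.3 CPM (-1.45 ± 0.20, adjusted p = 0.000449), and its neighbour Ccl7 from 153, 151 and 159 CPM to 56.1, 54.4 and 65.2 CPM (-1.40 ± 0.16, adjusted p = 8.82e-05). Ccl5 went from 235, 275 and 235 CPM to 80.4, 85.2 and 160 CPM (-1.20 ± 0.21, adjusted p = 0.00298), with difamilast replicate 3 nearest to vehicle, and lost its call without resting replicate 1 (adjusted p = 0.0721). Ccl3 and Ccl4 were not called by edgeR. Ccl3 was at 10558, 12688 and 10633 CPM with vehicle and 6246, 6150 and 9612 CPM with difamilast (adjusted p = 0.0714; called by DESeq2, 0.0205, and by limma-voom, 0.0369), and Ccl4 at 3144, 3693 and 2966 CPM and 1721, 1905 and 3382 CPM (adjusted p = 0.335). Cxcl2, a neutrophil attractant, had a log2 fold change of 0.24 and was not called (adjusted p = 0.381).

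The calls of several chemokine and cytokine genes depended on difamilast replicate 3. Without that library, 10 of the chemokine genes were called lower, against 2.74% of all genes tested in that fit, and Ccl3 (adjusted p = 0.00389), Ccl4 (adjusted p = 0.0144), Csf2 (adjusted p = 0.00175) and Il9 (adjusted p = 0.0219) were among the genes called. With all libraries, the GM-CSF gene Csf2 was at 121, 132 and 123 CPM with vehicle and 59.8, 68.3 and 110 CPM with difamilast (log2 fold change -0.66 ± 0.19, adjusted p = 0.0846; 0.0364 with DESeq2 and 0.0242 with limma-voom). Il9, which encodes a mast cell growth factor, was at 2128, 2749 and 2241 CPM and 1581, 1617 and 2848 CPM (-0.24 ± 0.19, adjusted p = 0.639), so difamilast replicate 3 stood above every vehicle library. Leaving that library out moved the log2 fold change of Il6 (-0.62 to -0.67), Ptgs2 (1.16 to 1.19) and Osm (0.81 to 0.90) little. The shorter Ccl2 (-1.45 to -1.51) and Ccl7 (-1.40 to -1.48) also moved little, while the long Csf1 went from -1.05 to -1.18.

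**Figure D3:**
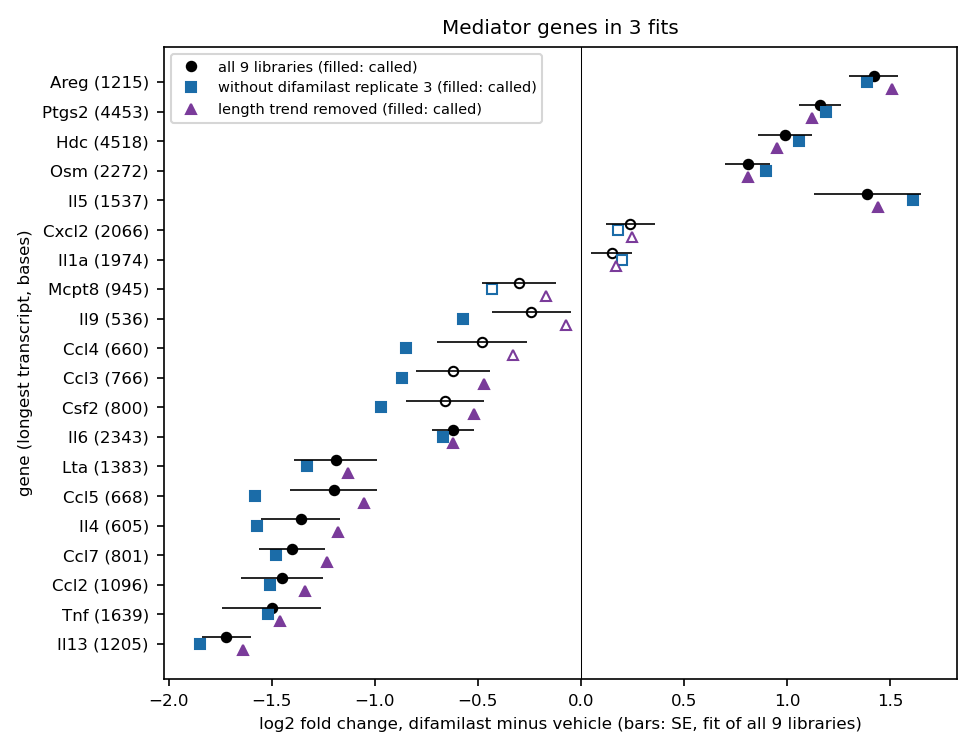
Log2 fold change, difamilast minus vehicle, of 20 mediator genes (horizontal axis), with the longest transcript in bases beside each name. Black circles are the fit of all 9 libraries with its standard error, blue squares the fit without difamilast replicate 3 and violet triangles the fit with the length trend removed; filled marks are called. Ccl3, Ccl4, Csf2 and Il9 are called without replicate 3 and not in the fit of all 9 libraries (Ccl3 and Csf2 also with the length trend removed), while Il13, Tnf, Il6, Areg and Ptgs2 are called in all 3.

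Growth, vascular and matrix factors gave 6 rises and 4 falls among 35 tested, with a median log2 fold change of 0.12. Besides Areg and Thbs1, Vegfa, the main vascular growth factor, rose 2.15-fold (adjusted p = 7.21e-05), while its receptor gene Flt1 was among the largest falls. Plau, the plasminogen activator urokinase, fell from 9.32, 10.4 and 9.99 CPM to 2.78, 3.44 and 3.27 CPM (-1.65 ± 0.20, adjusted p = 0.000167). Plaur, the urokinase receptor, rose 1.56-fold (adjusted p = 0.00335). Pdgfa, the platelet-derived growth factor A chain, fell 3.03-fold (adjusted p = 0.000378). Inhba, which encodes the activin A subunit, rose 1.70-fold (adjusted p = 0.0119) but lost its call without any 1 of the vehicle replicates (adjusted p 0.0531 to 0.0798). Spp1, osteopontin, fell 1.32-fold (adjusted p = 0.0347), a call lost without any 1 of the 6 libraries compared (adjusted p 0.0658 to 0.216).

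TNF superfamily ligands and receptors gave 3 rises and 4 falls among 29 tested, and beyond Tnf, Lta and Ltb the called members were receptors. The costimulatory receptors Tnfrsf9 (4-1BB) and Tnfrsf18 (GITR) rose, the first from 783, 838 and 874 CPM to 1446, 1396 and 1173 CPM (0.69 ± 0.10, adjusted p = 0.000944) and the second from 157, 143 and 157 CPM to 274, 307 and 331 CPM (1.00 ± 0.14, adjusted p = 0.000403). Tnfrsf13b (TACI) rose 1.70-fold (adjusted p = 0.00721) and lost its call without difamilast replicate 1 (adjusted p = 0.0611) or vehicle replicate 2 (adjusted p = 0.0579). Cd40 fell 1.67-fold (adjusted p = 0.0169), a call lost without difamilast replicate 1 or 2 or vehicle replicate 1 or 3 (adjusted p 0.0602 to 0.121).

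Enzymes of lipid mediators gave 2 rises and 2 falls among 20 tested. Ptgs2, the inducible cyclooxygenase, rose from 897, 902 and 1015 CPM to 2189, 2098 and 2015 CPM (log2 fold change 1.16 ± 0.10, adjusted p = 7.92e-06). Pla2g4a, the phospholipase that frees arachidonic acid, rose 2.06-fold (adjusted p = 0.000105). Alox5, the first enzyme of leukotriene synthesis, fell from 106, 108 and 109 CPM to 69.2, 60.6 and 63.4 CPM (-0.74 ± 0.14, adjusted p = 0.00526), a call at the threshold without difamilast replicate 2 (adjusted p = 0.0508). The constitutive cyclooxygenase Ptgs1 fell 1.47-fold (adjusted p = 0.0484), the weakest of these calls, lost without any 1 of the 6 libraries or resting replicate 3 (adjusted p 0.0503 to 0.218) and with another scaling (adjusted p = 0.0698).

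Histamine and serotonin genes also gave 2 rises and 2 falls, among 13. Hdc, the enzyme that makes histamine, rose from 2257, 2218 and 2356 CPM to 4902, 4570 and 4082 CPM (0.99 ± 0.13, adjusted p = 0.00028), whereas the H2 receptor gene Hrh2 fell. Slc6a4, the serotonin transporter, fell from 472, 416 and 442 CPM to 190, 170 and 177 CPM (-1.31 ± 0.14, adjusted p = 3.17e-05). Maob, a monoamine oxidase, rose 1.71-fold (adjusted p = 0.0246) and lost its call without any of the 5 libraries (adjusted p 0.0648 to 0.17).

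Genes of regulated secretion gave 4 rises and no fall among 36 tested, against 2.21% higher and 1.24% lower over all tested genes. Their median log2 fold change was 0.15. DESeq2 and limma-voom also called none lower, and 2 were lower at an unadjusted p below 0.05 in edgeR's test. All 4 serve dense-core vesicles or secretory granules, as the list was drawn up to hold such genes. It was chosen with earlier results of these data known, so its share of calls is no independent evidence. Ptprn, a dense-core vesicle membrane protein, went from 3.04, 1.22 and 2.14 CPM to 11.5, 11.4 and 8.87 CPM (2.41 ± 0.36, adjusted p = 0.000921), and Hid1, needed for vesicle formation at the trans-Golgi, from 3.43, 2.43 and 1.49 CPM to 13.4, 12.9 and 8.77 CPM (2.34 ± 0.28, adjusted p = 0.000124). Vgf, a granin-like peptide precursor, rose from 4.57, 6.17 and 5.74 CPM to 20.2, 23.3 and 16.2 CPM (1.83 ± 0.19, adjusted p = 3.17e-05). Rab27b, which docks granules at the membrane, was at 111 to 119 CPM at rest, 42.5 to 51.4 CPM with vehicle and 78.7 to 83.0 CPM with difamilast (1.76-fold, adjusted p = 0.000255).

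Basophil and mast cell granule and surface genes gave 4 rises and 3 falls among 30 tested. Gzmb, granzyme B, rose from 849, 875 and 1012 CPM to 1773, 1669 and 1480.0 CPM (log2 fold change 0.85 ± 0.11, adjusted p = 0.000228). Csf2rb, the shared beta chain of the IL-3, IL-5 and GM-CSF receptors, was at 2647 to 3288 CPM at rest, 1947 to 2051 CPM with vehicle and 3029 to 3532 CPM with difamilast (0.74 ± 0.11, adjusted p = 0.000813). Csf2rb2, the IL-3-specific copy, rose 1.64-fold (adjusted p = 0.00283), but the pair are nearly identical and their counts may hold reads of each other. The IL-3 receptor alpha gene Il3ra was not called (adjusted p = 0.101), nor was the IL-33 receptor gene Il1rl1 (adjusted p = 0.913).

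Cd69, an early activation marker, fell from 1578, 1605 and 1595 CPM to between 663 and 750 CPM in the difamilast libraries (log2 fold change -1.15 ± 0.10, adjusted p = 3.92e-06). Ms4a2, the beta chain of the IgE receptor, fell from 187, 179 and 177 CPM to 107, 95.8 and 108 CPM, close to the 99.9 to 108 CPM of resting cells (-0.81 ± 0.10, adjusted p = 0.000108). The alpha chain gene Fcer1a was not called (adjusted p = 0.871), nor were the proteases Mcpt8 (adjusted p = 0.473) and Prss34 (adjusted p = 0.737) or Cpa3 (adjusted p = 0.698). Lamp2, a lysosome and granule membrane protein, rose 1.36-fold (adjusted p = 0.0231), a call lost without any of the 5 libraries (adjusted p 0.0923 to 0.142). Tpsab1, a tryptase, fell 3.35-fold from at most 3.89 CPM (adjusted p = 0.0191) and lost its call without difamilast replicate 2 or vehicle replicate 1 or 2 (adjusted p 0.0719 to 0.145).

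Transcription factors of the stimulus response moved apart. Among 26 early growth response and MAPK feedback genes, 4 rose and 3 fell: Egr2 dropped from 67.4, 64.4 and 72.8 CPM to 30.5, 23.0 and 26.6 CPM (-1.35 ± 0.13, adjusted p = 1.51e-05), and Egr3 from 32.7, 27.6 and 25.5 CPM to 9.06, 8.26 and 11.5 CPM (-1.57 ± 0.16, adjusted p = 3.02e-05). Egr1 was not called, at 194 to 227 CPM and 161 to 168 CPM (-0.33 ± 0.10, adjusted p = 0.109). The rises were in MAP kinase phosphatases. Beside Dusp1, Dusp16, which acts on JNK, rose 1.88-fold (adjusted p = 0.000359), while Dusp5 (1.48-fold, adjusted p = 0.0136) lost its call without difamilast replicate 1 or 2 or vehicle replicate 1 or 2 (adjusted p 0.0895 to 0.0957) and Dusp4 (1.54-fold, adjusted p = 0.032) without any of the 5 libraries (up to 0.159). Spred1, an inhibitor of RAS signalling, fell 1.36-fold (adjusted p = 0.0231), lost in the same way (up to 0.162).

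Of 17 AP-1 and BATF genes, Fos and Fosl2 rose, Batf and Batf3 fell and 13 were not called. Batf, which works with IRF4 at cytokine genes, dropped from 184, 182 and 182 CPM to 64.1, 68.8 and 99.4 CPM (-1.24 ± 0.18, adjusted p = 0.000573). Batf3 dropped from 8.28, 10.1 and 9.80 CPM to 1.41, 1.17 and 2.85 CPM, near the 0.633 to 2.37 CPM of resting cells (-2.41 ± 0.33, adjusted p = 0.000377). Both kept their calls in every alternative fit, as did Fos and Fosl2.

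NF-kB genes did not move as a group: 6 rose and 4 fell among 32, and the median log2 fold change was -0.01. Nfkbie, which encodes the inhibitor IkB epsilon, rose from 103, 99.1 and 99.2 CPM to 190, 189 and 168 CPM (0.86 ± 0.11, adjusted p = 0.000164), and the activation marker Cd83 rose 1.81-fold (adjusted p = 0.00132). Icam1, an adhesion molecule and a standard NF-kB target, fell from 363, 352 and 348 CPM to 152, 152 and 176 CPM (-1.15 ± 0.11, adjusted p = 9.21e-06), and Nfkbid, a nuclear IkB protein, fell 1.64-fold (adjusted p = 0.0015). Nfkb1 rose 1.45-fold (adjusted p = 0.0048; without vehicle replicate 1 or 2, 0.0542 and 0.0506). Gadd45b fell, as above. Cyld, Ripk2 and Nfkbiz rose and Irak3 fell, each by 1.32-fold to 1.42-fold. These 4 calls were lost without any vehicle replicate or difamilast replicate 2, and Ripk2, Nfkbiz and Irak3 also without difamilast replicate 1 (adjusted p up to 0.206).

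The IL-3 receptor and STAT5 list gave 2 rises, Osm and Gzmb, and 1 fall, Cd69, among 20. The STAT5 feedback gene Cish (adjusted p = 0.67) and the IL-2 receptor alpha gene Il2ra (adjusted p = 0.341) were not called. Of 25 NFAT and calcium entry genes only Orai2, a calcium channel subunit, was called, against 3.44% of all tested genes. It was 1.35-fold higher (adjusted p = 0.0211, lost without any of the 5 libraries, up to 0.126). Of 13 Kruppel-like factors only Klf3 was called, 1.44-fold lower (adjusted p = 0.0149; lost without difamilast replicate 1 or 2 or vehicle replicate 1 or 2, up to 0.119). Among 20 clock genes Nfil3 rose, and Bhlhe40, a repressor that also promotes cytokine expression, fell 1.47-fold (adjusted p = 0.00457; 0.0514 without difamilast replicate 2).

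Genes whose products control the decay of cytokine mRNA gave 3 rises and 1 fall among 24. Zfp36 (tristetraprolin), which binds AU-rich elements and speeds decay of Tnf mRNA, went from 208, 221 and 219 CPM to 318, 314 and 276 CPM (0.49 ± 0.10, adjusted p = 0.00814). Its relative Zfp36l2 went the other way, from 109, 111 and 104 CPM to 70.1, 67.5 and 64.2 CPM (-0.69 ± 0.11, adjusted p = 0.00128), and had been at 276 to 354 CPM at rest. Zfp36l1 (adjusted p = 0.0137) and the deadenylation adaptor Tob1 (adjusted p = 0.0166) rose too. The calls of Zfp36 (without difamilast replicate 1 or 2 or vehicle replicate 1), Zfp36l1 (without difamilast replicate 2 or any vehicle replicate) and Tob1 (without any of the 5 libraries) were lost, with adjusted p up to 0.0718, 0.091 and 0.11; that of Zfp36l2 was not.

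In the BCL2 and cell death list 1 gene rose and 1 fell among 22. Bcl2l11 (BIM), which promotes apoptosis, rose from 337, 331 and 354 CPM to 584, 566 and 542 CPM (0.73 ± 0.09, adjusted p = 0.000267). Cflar (c-FLIP), which blocks caspase-8, fell 1.42-fold (adjusted p = 0.00456; 0.0559 without difamilast replicate 2).

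Adhesion and chemotactic receptors gave 4 rises and 4 falls among 34. Ccrl2, which binds the attractant chemerin, rose from 56.4, 50.8 and 61.2 CPM to 196, 189 and 157 CPM (log2 fold change 1.69 ± 0.12, adjusted p = 1.54e-06). S1pr1 rose, as above, and so did Ccr7, the receptor that guides cells to lymph nodes (1.93-fold, adjusted p = 0.013; lost without difamilast replicate 1 or 2 or vehicle replicate 1 or 2, up to 0.0936). Those that fell were Icam1, the complement receptor C3ar1, the chemokine receptor Cxcr2 and the fibronectin receptor subunit Itga5. C3ar1 was at 477, 475 and 451 CPM with vehicle and 243, 235 and 261 CPM with difamilast, with 261 to 286 CPM at rest (-0.92 ± 0.09, adjusted p = 2.73e-05). Cxcr2 fell 1.63-fold (adjusted p = 0.00283) and Itga5 1.65-fold (adjusted p = 0.001).

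**Figure D4:**
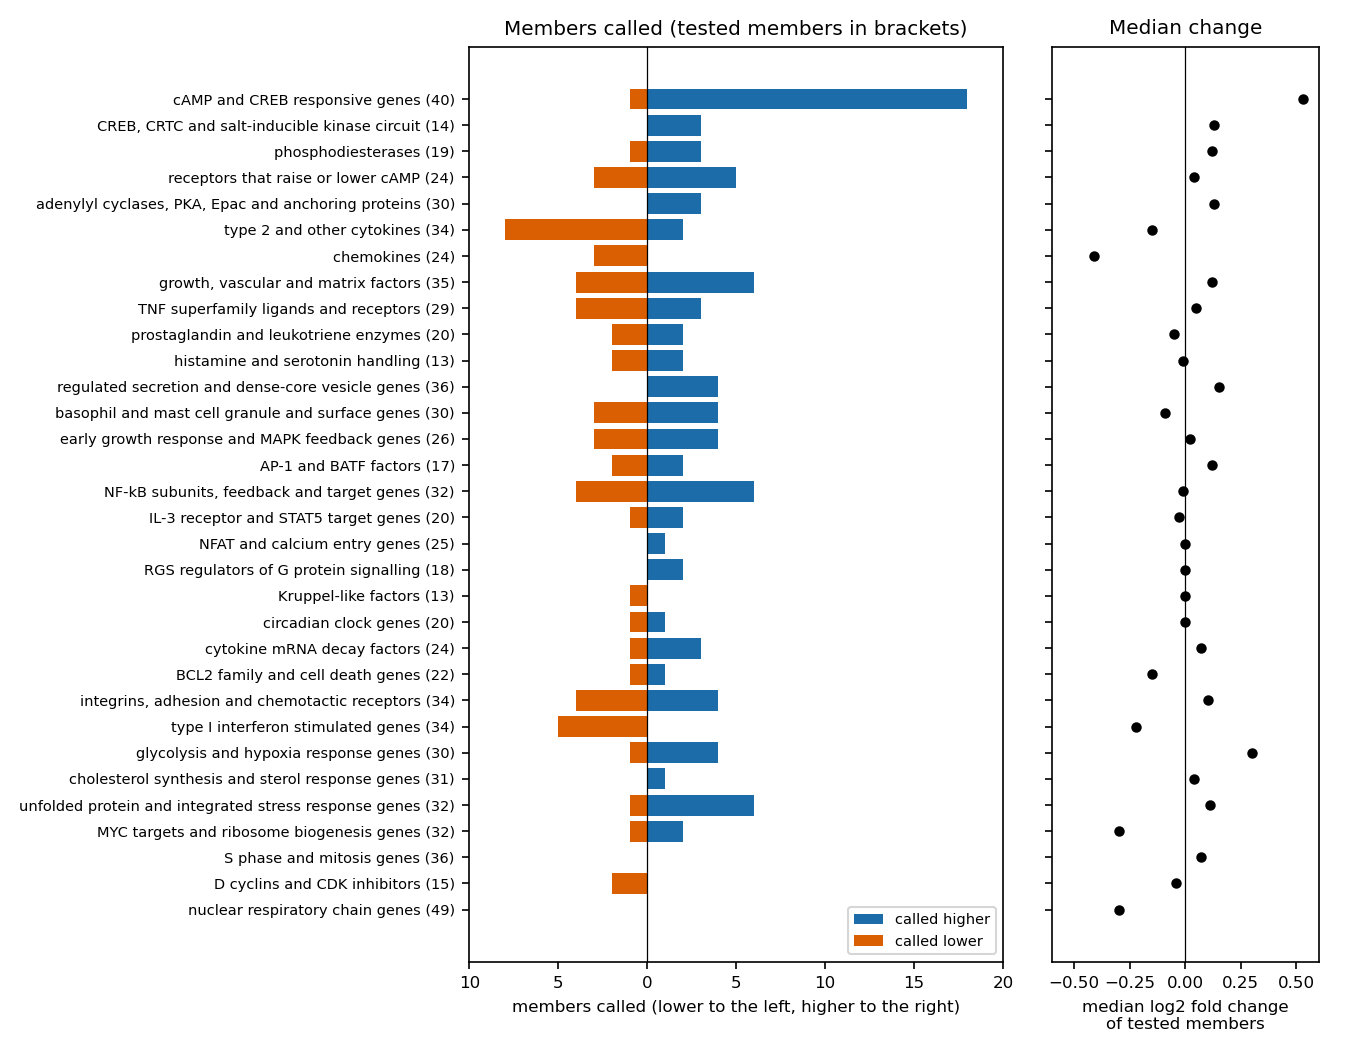
Left, members of each gene list called higher (blue, to the right) or lower (orange, to the left) with difamilast, with the number tested in brackets; right, the median log2 fold change of the tested members. The cAMP and CREB list has the most rises (18 of 40) and cytokines the most falls (8 of 34), and the S phase and mitosis and respiratory chain lists have none called. Over all tested genes 2.21% were called higher and 1.24% lower.

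Genes induced by type I interferon tended lower, with no rise and 5 falls among 34, a median log2 fold change of -0.22 and 3 members with a positive value. Over all tested genes 2.21% were called higher and 1.24% lower. At an unadjusted p below 0.05 in edgeR's test 13 were lower and 0 higher, and DESeq2 and limma-voom each called 7 lower and none higher. Mx1, an antiviral GTPase, was at 13.0 to 24.2 CPM at rest, 58.4, 48.9 and 51.1 CPM with vehicle and 28.4, 24.0 and 31.6 CPM with difamilast (-0.91 ± 0.19, adjusted p = 0.0119). Gbp2, a guanylate-binding protein, fell 1.42-fold from above 1500 CPM (adjusted p = 0.00398), Ifit2 fell 2.10-fold (adjusted p = 0.008) and Ifit3 1.89-fold (adjusted p = 0.0176); Ifit3b, nearly identical to Ifit3, is uncertain beside it. These calls were close to the threshold: without difamilast replicate 2 all 5 were lost (adjusted p 0.0516 for Gbp2 to 0.136 for Ifit3b). Ifit2, Ifit3 and Mx1 were lost also without difamilast replicate 1 or vehicle replicate 1, and Ifit3 and Ifit3b without any vehicle replicate (adjusted p up to 0.0961). Without difamilast replicate 3, 11 members were called lower, against 2.74% of all genes tested in that fit. Isg15 shows the spread, at 180.0 to 235 CPM with vehicle and 135, 138 and 285 CPM with difamilast (adjusted p = 0.831).

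Glycolysis and hypoxia genes leaned higher, with 4 rises and 1 fall among 30, 26 members positive and a median log2 fold change of 0.30. Hif1a, the hypoxia-response factor, rose from 228, 226 and 231 CPM to 383, 372 and 338 CPM (0.67 ± 0.10, adjusted p = 0.00112). Pfkfb3, which drives glycolysis, rose 1.71-fold (adjusted p = 0.00154), and Mxi1, a MYC antagonist, rose from 32.7, 32.6 and 31.5 CPM to 80.8, 85.5 and 72.0 CPM (1.30 ± 0.12, adjusted p = 1.4e-05). Slc2a3, the glucose transporter GLUT3, fell from 177, 154 and 166 CPM to 75.9, 76.9 and 82.6 CPM (-1.08 ± 0.14, adjusted p = 0.000187), while Slc2a1, GLUT1, had 97.3 to 109 and 116 to 142 CPM and was not called (adjusted p = 0.209). Egln3 rose 1.36-fold (adjusted p = 0.0195; lost without any of the 5 libraries, up to 0.145), and Ldha was not called (adjusted p = 0.0676).

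Stress response genes gave 6 rises and 1 fall among 32. The rises included the amino acid transporters Slc7a11 (1.67-fold, adjusted p = 0.000324) and Slc7a5 (1.87-fold, adjusted p = 0.00249) and their common heavy chain Slc3a2. Slc3a2 was at 679, 652 and 698 CPM with vehicle and 1113, 1078 and 833 CPM with difamilast (0.58 ± 0.12, adjusted p = 0.0116). Its call was lost without any of the 5 libraries (adjusted p 0.0521 to 0.0918). Ern1 (IRE1 alpha), a sensor of unfolded protein, rose 1.43-fold (adjusted p = 0.00636), lost without difamilast replicate 2 or vehicle replicate 1 or 2 (up to 0.0644). Trib3 and Pdia4 rose 1.89-fold (adjusted p = 0.0427) and 1.34-fold (adjusted p = 0.0218), both lost without any of the 5 libraries (up to 0.283 and 0.136). Herpud1 fell 1.39-fold (adjusted p = 0.0481) and was lost without any 1 of the 6 libraries or resting replicate 3 (0.058 to 0.211) and with another scaling (0.0766). Of 31 cholesterol genes, only Mylip, which degrades the LDL receptor, was called, against 3.44% of all tested genes. It was 1.34-fold higher (adjusted p = 0.0497). Of 17 alternative fits 8 did not call it, among them those without difamilast replicate 1 or 2, any vehicle replicate or resting replicate 3 (adjusted p up to 0.275).

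The MYC and ribosome biogenesis list gave 2 rises and 1 fall among 32, with a median log2 fold change of -0.30 and 5 members positive. DESeq2 called 6 lower, limma-voom 5 and the edgeR fit of the 2 groups alone 10, and 13 were lower at an unadjusted p below 0.05. Mxd1, a MYC antagonist, rose from 549, 543 and 590 CPM to 1188, 1139 and 1009 CPM (0.99 ± 0.12, adjusted p = 0.000124). In polyamine synthesis, Odc1 rose 1.70-fold (adjusted p = 0.00698; without difamilast replicate 2 or vehicle replicate 1 or 2, up to 0.0593) and Srm fell 1.57-fold (adjusted p = 0.0481; lost without any 1 of the 6 libraries or resting replicate 3, up to 0.227). Myc itself was not called (adjusted p = 0.421). None of 36 S phase and mitosis genes was called by edgeR, DESeq2 or limma-voom, and 2 were higher and 0 lower at an unadjusted p below 0.05 in edgeR's test. The CDK inhibitor Cdkn2b (p15) fell from 121, 135 and 129 CPM to 44.7, 48.7 and 44.5 CPM, against 11.3 to 15.5 CPM at rest (-1.48 ± 0.12, adjusted p = 3.18e-06). Its neighbour Cdkn2a fell 3.39-fold from 3.79 to 6.80 CPM (adjusted p = 0.0135), a call lost without difamilast replicate 1 or 2 or vehicle replicate 2 (adjusted p 0.0665 to 0.133).

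Short transcripts behaved differently in difamilast replicate 3. Among 438 genes averaging at least 10 CPM whose longest annotated transcript is under 750 bases, the median log2 CPM difference from the vehicle mean was -0.56 in difamilast replicate 1 and -0.53 in replicate 2, but 0.06 in replicate 3. For the 296 genes of 750 to 1000 bases the values were -0.63, -0.48 and -0.10. Above 4000 bases (3275 genes) the 3 libraries were alike, at 0.05, 0.06 and 0.02. The vehicle libraries also differed in the shortest class, each against the mean of the other vehicle libraries, by -0.08, 0.20 and -0.11. In the fit of all libraries 18 genes of the shortest class were called lower and 4 higher, and without difamilast replicate 3 the lower calls became 122, with 4 higher.

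**Figure D5:**
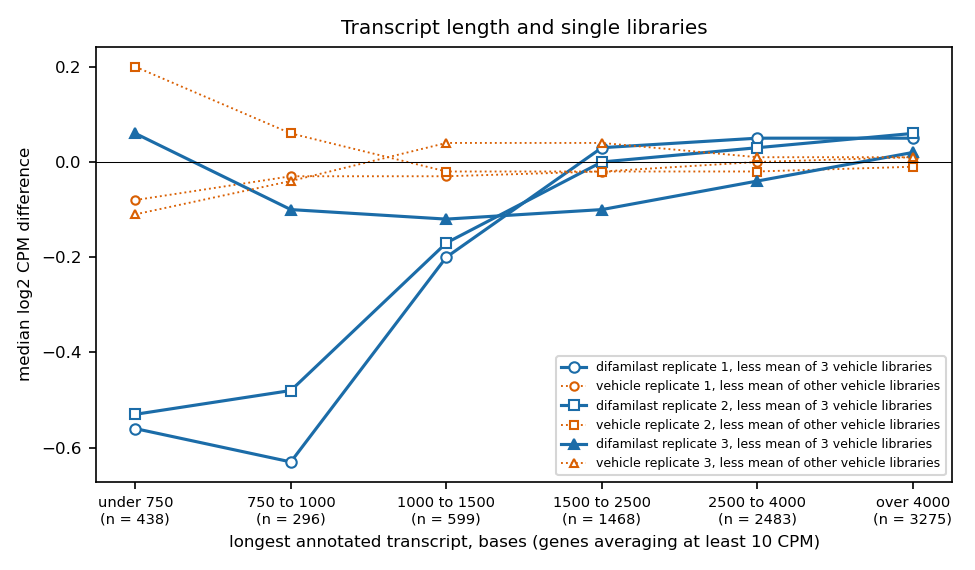
Median log2 CPM difference (vertical axis) of each difamilast library from the mean of the 3 vehicle libraries (blue) and of each vehicle library from the mean of the other vehicle libraries (orange, dotted), by length of the longest annotated transcript (horizontal axis, genes averaging at least 10 CPM). Difamilast replicates 1 and 2 lie at -0.56 and -0.53 in the shortest class and replicate 3 at 0.06, and all 6 lines are close to 0 above 4000 bases.

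The nuclear respiratory chain genes are a list of mostly short transcripts, 49 genes with a median transcript length of 927 bases. Of these, 1 had a positive log2 fold change and none was called by edgeR's test. The median was -0.30, and -0.22 with the length trend removed. Without difamilast replicate 3 the same test called 14 lower, against 2.74% of all genes tested in that fit. The fit of the 2 groups alone called 2 lower, against 4.01% of its genes. At an unadjusted p below 0.05 in the edgeR fit of all libraries 15 were lower and 0 higher, and DESeq2 and limma-voom called none. Over called genes of any length, difamilast replicate 3 had the lowest value of the 3 difamilast libraries in 340 of the 471 genes that rose (72.2%) and the highest in 158 of the 264 that fell (59.8%), so it lay nearest to vehicle in most called genes. Genes that rose had a median longest transcript of 3723 bases and genes that fell one of 2588 bases, against 2766 bases over all tested genes. Without that library 659 of the 735 calls were made again. Counts of mitochondrial genes were 1.51% to 1.67% of the total with vehicle and 1.19% to 1.42% with difamilast. The part of transcript length in single results was not tested beyond the fit with the length trend removed.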

How the data were processed

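The authors deposited raw read counts per gene symbol for 9 libraries. Per the labels' protocols, RNA was captured on oligo-dT beads and the cDNA was amplified before fragmentation, with no molecular identifier mentioned. Cutadapt 4.1, Bowtie2 2.4.5 and the build GRCm38 appear in the submitters' processing notes. Which tool counted reads, with what annotation and strand setting, is not given in the sources used here. Counts were tested with edgeR 4.0.16 in R 4.3.3: TMM scaling, filterByExpr (minimum count 10, minimum total 15), robust quasi-likelihood fit of all 9 libraries (6 residual degrees of freedom, common biological coefficient of variation 0.156), Benjamini-Hochberg adjustment. Scripts were tested on simulated data. DESeq2 1.42.0, limma-voom (limma 3.58.1), other scaling, filters and left-out libraries were alternatives. Positions and transcript lengths are from GENCODE vM21 and matched 20649 tested genes.

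The members, gene lists and rules were chosen with earlier results of these data known. The rule for named genes took a panel, the 12 largest rises and 12 largest falls reaching 10 CPM with groups apart, and up to 4 called members per list; other list members and Rad50 were named after their values were seen. Some genes the rule takes are not reported here. Replicate numbers were not taken to pair the samples, except in an alternative fit with that number as a block. Same-group libraries differed beyond counting noise.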

Additional observations from a re-analysis of the deposited data

How the results depend on the processing

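Against 735 genes changed by difamilast (471 genes higher with difamilast, 264 genes lower with difamilast), limma-voom called 968, DESeq2 1117 (446 lower), a fit without a filter on low counts 1351 (662 lower), another scaling 730 and a fit with the length trend removed 922. A fit of the 2 groups alone called 1673 (831 higher, 842 lower), and the same fit without difamilast replicate 3, chosen after seeing the data, 4156 (1782 higher, 2374 lower). Leaving out 1 library gave 347 to 1693 calls, 258 to 870 higher and 89 to 823 lower. The median log2 fold change of transcripts under 750 bases was -0.31, and -0.57 without difamilast replicate 3, -0.14 with the length trend removed, -0.21 over all tested genes, -0.28 at 50 CPM or more and -0.11 by median transcript length. Of 137 named genes 104 were called. None of these was called in the opposite direction in an alternative, and 77 kept the call in every one. Some named genes that were not called changed sign between fits, such as Il1rl1 (-0.05, and 0.04 without difamilast replicate 1). Of the named genes not called, 17 passed in at least 1 alternative. The cause of these differences was not tested.

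With the replicate number as a block, the genes changed by difamilast numbered 700 (426 higher, 274 lower), 648 of them among the 735. Same-numbered libraries did not regularly deviate together: 3 of 9 correlated best with a library of their own number, and r ranged from -0.396 to 0.419, or -0.311 to 0.038 between vehicle and difamilast. With deviations taken from means of only 3 libraries, these values cannot show whether the numbers pair the samples.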

Other observations

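Further genes, picked after their values were seen, changed beside those of the lists. Irf4, the partner of BATF at cytokine genes, was at 39.5, 31.2 and 37.9 CPM with vehicle and 16.1, 14.2 and 18.1 CPM with difamilast (log2 fold change -1.17 ± 0.17, adjusted p = 0.000834). Stat4, which carries IL-12 signals, rose from 24.3, 23.5 and 26.0 CPM to 92.8, 86.3 and 76.9 CPM (1.79 ± 0.15, adjusted p = 3.6e-06). Tsc22d3 (GILZ), an anti-inflammatory gene known from glucocorticoid responses, was at 68.0 to 90.8 CPM at rest, 25.9 to 28.4 CPM with vehicle and 59.7 to 86.2 CPM with difamilast (adjusted p = 2.59e-05). The growth factor receptor Igf1r rose 3.02-fold (adjusted p = 1.26e-06), the costimulatory ligand Cd80 3.71-fold (adjusted p = 7.92e-06) and the receptor partner Ramp3 2.75-fold (adjusted p = 1.92e-05). The chemokine Ccl20 fell 2.13-fold (adjusted p = 0.0039).

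The endotoxin receptor genes did not move together. Tlr4 rose from 11.7, 14.5 and 16.2 CPM to 35.4, 33.2 and 36.2 CPM (1.29 ± 0.17, adjusted p = 0.000287), and Cd14 from 275, 245 and 283 CPM to 1006, 920.4 and 735 CPM (1.73 ± 0.13, adjusted p = 1.61e-06). Ly96 (MD-2) fell 1.83-fold (adjusted p = 0.0276), a call lost without difamilast replicate 1 or 2 or any vehicle replicate; its longest transcript has 666 bases. Cd14 is also a monocyte marker, and the other 17 tested monocyte and macrophage markers were not called. Also picked in this way, Dgat1, which makes triglyceride, was at 778 to 953 CPM at rest, 368, 380 and 416 CPM with vehicle and 1326, 1255 and 1104 CPM with difamilast (1.66 ± 0.11, adjusted p = 1.26e-06), and Hilpda, an inhibitor of lipolysis, rose 2.76-fold (adjusted p = 2.07e-05).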
